A study of Mus musculus with 2 samples.

Results

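Methylation of CpG cytosines was followed in the mouse genes Grin1, Grin2b, Gria1 and Camk2a in the hippocampus, the brain region that forms new memories. The genes were chosen by name, and their cytosines by position: a span of the mm9 build in whole kb around each gene, with 5000 bp on either side, and a coverage of at least 10 reads in both libraries. This kept 826 of the 2895 cytosines listed in the spans in either library, and of 2312276 analysed in the series. The spans, with no gene annotation of mm9 used here, were 25141 to 25180 kb on chromosome 2 for Grin1, 135658 to 136128 kb on chromosome 6 for Grin2b, 56820 to 57150 kb on chromosome 11 for Gria1 and 61080 to 61153 kb on chromosome 18 for Camk2a. A gene's ends were taken as the ends of its span less the flanks, so they are known to about 1 kb.

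The study compared 1 hippocampus library from C57BL/6 mice with developmental exposure to arsenic trioxide (ATO) and 1 from C57BL/6 mice with no treatment (control). Per the labels, the ATO was given at 5000 ppb in the drinking water, starting ahead of mating and lasting until lactation, and the offspring stayed on it once weaned. The ATO library held 147924810 C and T calls at CpG cytosines and the control 135987272, and the analysed cytosines had median coverages of 44 and 41 reads. Age, sex and the number of animals behind a library are not in the labels, and no group had a replicate, so each comparison is between these 2 libraries and not between the conditions. DNA was enriched with the SureSelect mouse Methyl-Seq capture kit, treated with bisulfite, which turns unmethylated C into T after amplification, and sequenced. The methylation level of a cytosine is its percent of C among C and T calls. A bulk level between 0 and 100% cannot tell a share of methylated cells from a share of methylated copies, and the cells of the sample could not be checked against marker genes in these data.

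Grin1 encodes the obligatory GluN1 subunit of NMDA receptors, the glutamate-gated channels that admit calcium when transmitter release and depolarisation coincide. Grin2b encodes GluN2B, a glutamate-binding partner of GluN1 that prevails early in development. Gria1 encodes GluA1, an AMPA receptor subunit that carries fast transmission and is added to synapses in potentiation. Camk2a encodes the alpha subunit of the calcium/calmodulin-dependent kinase that acts downstream of NMDA receptors and phosphorylates GluA1. CpG-dense DNA at the start of active or poised genes is usually unmethylated, while most other CpGs of the genome are methylated.

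The promoter of Grin1 is shown because each of its CpGs could be tied to a listed cytosine. It is the reverse-strand stretch upstream of the RefSeq start site, as RefSeq gives it for GRCm38.p6. The RefSeq promoter window, which runs 50 bases further, was laid on the listed cytosines by the spacing of its CpGs alone. All 33 of its CpGs met a reverse-strand cytosine at a single placement in the span, and the next best placement met 12. At that placement the stretch covers chr2:25174708-25174957 of mm9. Capitals mark the 27 CpGs that were analysed, 5′ to 3′:
Grin1 promoter: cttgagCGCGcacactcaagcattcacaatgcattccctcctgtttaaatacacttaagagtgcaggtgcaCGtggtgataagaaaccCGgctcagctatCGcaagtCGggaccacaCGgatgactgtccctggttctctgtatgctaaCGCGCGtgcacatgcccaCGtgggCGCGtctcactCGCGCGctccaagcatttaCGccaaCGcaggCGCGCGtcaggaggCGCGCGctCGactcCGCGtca

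The Grin1 promoter was nearly unmethylated in both libraries. Over its 27 upstream CpGs the level averaged 7.91% ± 13.6 in the ATO library and 7.07% ± 11.3 in the control (SD over CpGs), with median coverages of 35 and 25 reads. The ATO library was higher at 10 CpGs and lower at 11. Methylation above 20% was limited to the CpG pair at the far end of the stretch. At position -244 from the start site the level was 46.7% in the ATO library and 26.7% in the control (15 reads each), and at position -242 it was 55.6% and 53.3%. The motif CACGTG, an E-box that reads the same on both strands and has a CpG at its centre, occurred 2 times. Its CpGs, at positions -179 and -83, had 0% and 2.17% in the ATO library, against 4.35% and 11.4% in the control. Of 32851 mouse promoter windows of 300 bases in the RefSeq table, each running past the start site, 7.15% hold this motif, and 0.594% hold it at least 2 times.

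**Figure D1:**
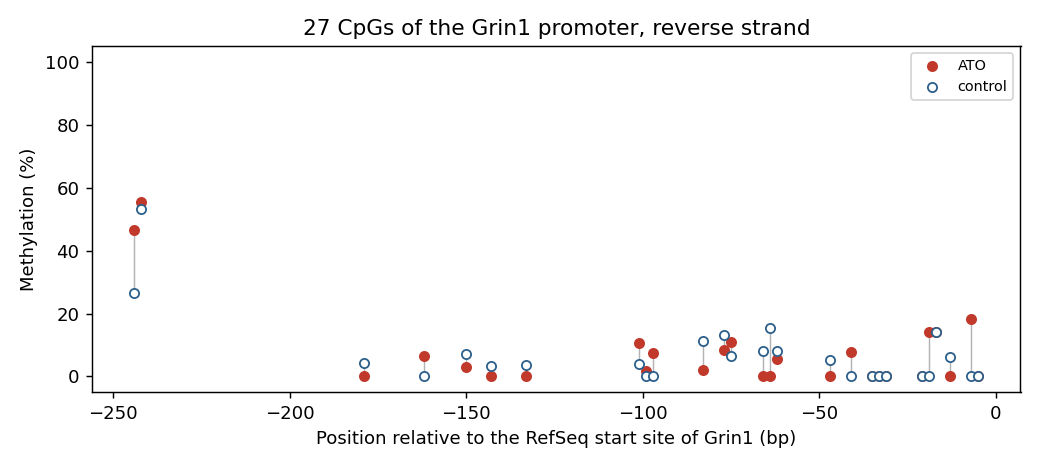
Methylation level (percent) of the 27 analysed CpGs upstream of the Grin1 start site against their position (bp); filled points are the ATO library and open points the control, joined by a line. All but the outermost pair lie under 20% in both libraries.

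The 4 genes differed most in how much methylation they carried, and this order was the same in both libraries. The mean over cytosines was 12.8% ± 18.7 in the ATO library and 13.0% ± 18.7 in the control for Grin1 (SD over 302 cytosines). It was 41.5% ± 25.7 and 41.1% ± 26.6 for Camk2a (231 cytosines), 55.5% ± 36.5 and 53.9% ± 37.5 for Grin2b (250), and 76.2% ± 24.8 and 83.5% ± 19.7 for Gria1 (43). The spread within each gene was wide, and these means depend on where cytosines were read. Analysed cytosines per kb numbered 7.74 in Grin1, 3.16 in Camk2a, 0.532 in Grin2b and 0.130 in Gria1.

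The genes also differed in the kind of level that prevailed. Of the Grin1 cytosines 62.9% lay under 10% in the ATO library and 62.6% in the control. Of the Camk2a cytosines 68.0% lay between 20 and 80% in the ATO library and 65.4% in the control, the largest share of the 4 genes. Grin2b held both extremes, with 19.6% of its cytosines under 10% and 28.4% over 90% in the ATO library, against 22.0% and 28.4% in the control. In Gria1 41.9% of cytosines lay over 90% in the ATO library, against 51.2% in the control.

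**Figure D2:**
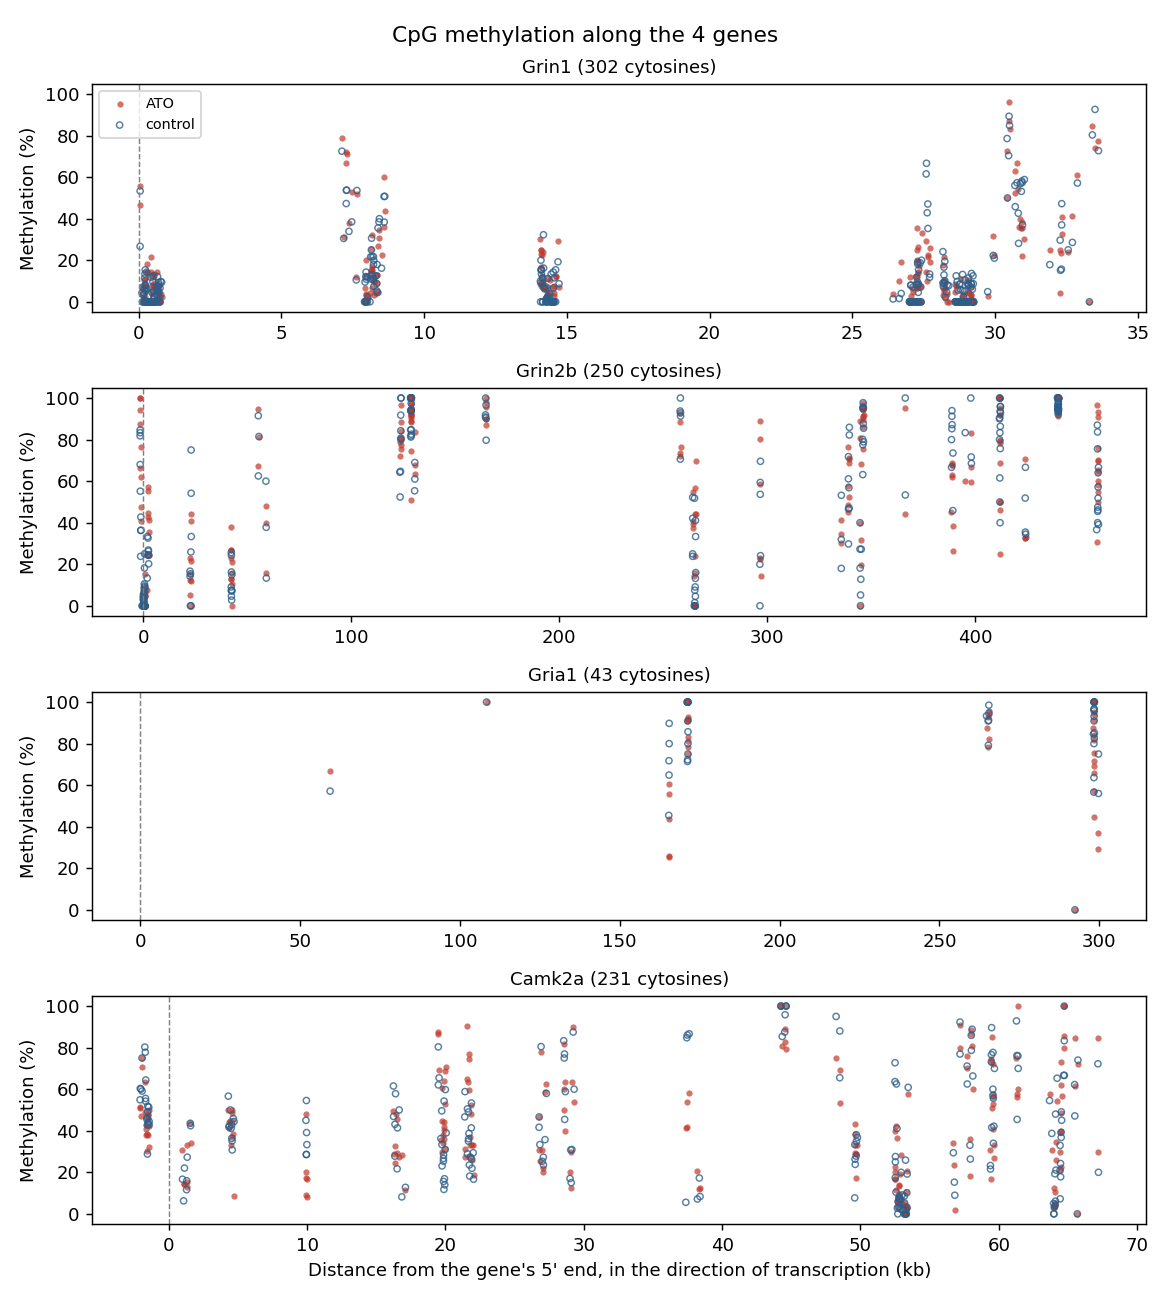
Methylation level (percent) of each analysed cytosine against its distance from the gene's 5′ end (kb, in the direction of transcription; dashed line at 0); filled points are the ATO library and open points the control. Grin1 is low at its 5′ end and about 14.2 kb from it, and its other groups of cytosines have mixed levels. Grin2b is low at its 5′ end and mixed after it. Gria1 has no analysed cytosine at its 5′ end, and Camk2a has none between positions -1418 and 990 bp.

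CpG density was read from 500-bp bins. A bin with at least 15 analysed cytosines was called dense, whatever its level, and cytosines outside dense bins but within 2000 bp of one were called shore. Across the autosomes outside the 4 spans, 74.2% of 37592 dense bins had a level under 10% (mean of both libraries), 8.15% had 80% or more, and 17.7% lay between. The 14 dense bins of the 4 genes were split as 8, 3 and 3.

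Grin1 had 7 dense bins, of which 6 were under 10%. A pair of them, from 25174001 to 25175000, spanned the 5′ end and had 3.46% and 5.25% in the ATO library, against 3.95% and 4.78% in the control. A dense bin inside the gene, 14.2 kb from the 5′ end, had 6.10% in the ATO library and 4.99% in the control. The dense bin 8.2 kb from the 5′ end was partly methylated, with 15.2% (exact 95% interval 8.61 to 25.3) in the ATO library and 17.0% (8.79 to 27.0) in the control. The other 3, starting at 25145501, 25146001 and 25147501, lay at the 3′ end and had 1.89%, 1.48% and 7.46% in the ATO library, against 5.34%, 3.28% and 5.28% in the control. In the RefSeq table for GRCm38.p6, used only for which genes adjoin each other, Lrrc26 and the noncoding Grin1os overlap Grin1. Where along Grin1 they lie was not recorded, so the low levels at its 3′ end cannot be assigned to Grin1 alone.

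Grin2b had both kinds of dense DNA. Its 5′ end was unmethylated: the dense bins at 0.2 and 0.7 kb inside the gene had 2.21% and 2.62% in the ATO library, against 2.06% and 3.38% in the control. A pair of dense bins deep in the gene was almost fully methylated. At 128.8 kb from the 5′ end the level was 91.4% in the ATO library and 95.2% in the control, and at 439.8 kb it was 97.1% and 96.3%. So the mean of its dense cytosines, 56.5% ± 46.1 in the ATO library and 57.9% ± 46.1 in the control, stands for no single bin.

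Gria1 and Camk2a had no dense bin at the 5′ end. Within 2000 bp of the 5′ end of Gria1 12 cytosines were listed and 0 analysed, with at most 2 reads at any of them in either library. At all depths 0 of 2 calls were methylated there in the ATO library and 5 of 20 in the control, so the state of the Gria1 promoter was not detectable at this depth. The only dense bin of Gria1 lay 298.2 kb into the gene and was methylated, at 82.9% in the ATO library and 88.5% in the control. It held 16 cytosines, 9 of them on the reverse strand, so some CpGs were counted on both strands.

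Camk2a was partly methylated where it was read on both sides of its 5′ end. Of 77 cytosines listed within 2000 bp of that end, 25 were analysed. None of them lay between positions -1418 and 990 bp from the 5′ end, so the state of the start itself was not read at this depth. The bin 1.7 kb upstream had 45.8% (exact 95% interval 33.8 to 57.3) in the ATO library and 56.6% (45.9 to 67.9) in the control over 13 cytosines. The bin from 61086001 to 61086500, inside the gene, had 17.8% and 17.1%. Its 2 dense bins were partly methylated as well. The bin 19.8 kb from the 5′ end had 46.3% in the ATO library and 33.6% in the control, and the one at 52.8 kb had 14.2% and 12.5%. The lowest bin of Camk2a away from dense DNA, 63.8 kb from the 5′ end in the downstream flank, had 15.7% in the ATO library and 17.5% in the control.

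Outside dense bins and shores the bodies of the genes kept the same order. The rest of Gria1 averaged 75.7% ± 26.8 in the ATO library and 81.3% ± 22.5 in the control (25 cytosines), the rest of Grin2b 56.5% ± 30.4 and 54.9% ± 32.5 (142), and the rest of Camk2a 45.7% ± 24.8 and 48.8% ± 26.8 (113). All analysed cytosines inside Grin1 were dense or shore. For the autosomes outside the spans, cytosines that were neither averaged 63.3% in the ATO library and 65.9% in the control, and shores averaged 36.2% and 36.9%. The shores of Grin1 averaged 26.4% ± 25.4 in the ATO library and 28.0% ± 24.7 in the control.

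**Figure D3:**
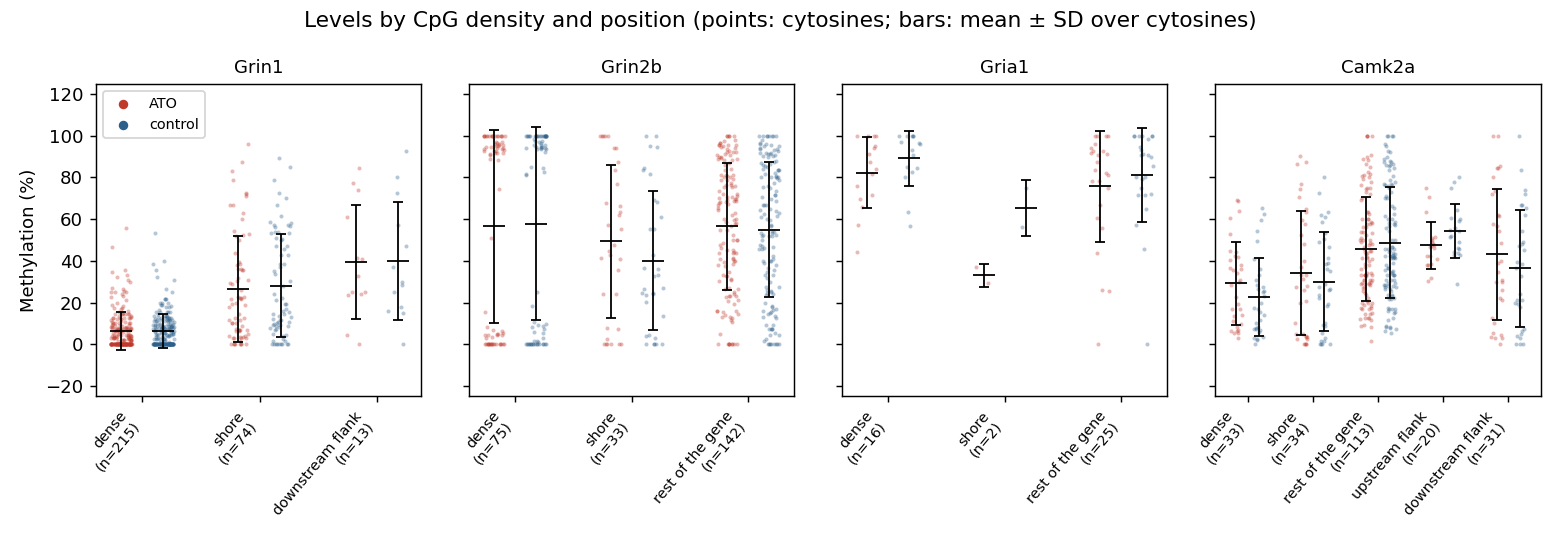
Methylation level (percent) of cytosines in dense bins, shores, the rest of the gene and the flanks, with the ATO library left of the control in each pair; points are cytosines, bars the mean and SD over cytosines, and the axis runs past 0 and 100% to hold the bars. Dense cytosines are low in Grin1, split between both extremes in Grin2b and partly methylated in Camk2a. They are high in Gria1, where they come from 1 bin with most CpGs counted on both strands.

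Some low bins lay far from dense DNA. In Grin2b the lowest of them, from 136080501 to 136081000 and 42.2 kb from the 5′ end, had 16.7% (exact 95% interval 9.32 to 28.4) in the ATO library and 11.8% (4.73 to 25.2) in the control. In Grin1 the only such bin was in the downstream flank, at 28.1% in the ATO library and 29.3% in the control. In Gria1 the lowest was also the bin with its largest difference, described below.

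The next question was whether the 2 libraries differed in these genes. Over the 826 cytosines the mean difference (ATO minus control) was 0.14 percentage points with an SD of 12.7 between cytosines, and 368 were higher and 354 lower in the ATO library. Over all 2312276 analysed cytosines it was -1.28 points with an SD of 11.9. The median was 0 in both sets. By gene the mean was 1.67 points (SD 13.6) in Grin2b, 0.34 (SD 14.6) in Camk2a, -0.23 (SD 9.27) in Grin1 and -7.26 (SD 14.4) in Gria1. The Gria1 value became -11.3 points at a coverage minimum of 20 and -14.3 at 30, and that of Grin2b 0.72 points without 1 group of neighbouring cytosines. The sign in Grin1 and Camk2a turns when a single group of neighbouring cytosines is left out, to 0.81 points in Grin1 and -0.86 points in Camk2a, and in Camk2a also at a coverage minimum of 5, to -0.60 points, so neither gene has a direction.

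Since differences in this pair of libraries vary with level, the 58 member bins with at least 5 analysed cytosines were set against 149486 autosomal bins outside the spans in classes of the same level. Autosomal bins averaged -4.03 points (SD 14.6) at 40 to 60% and 0.03 points (SD 1.32) under 5%. The mean excess over the class mean was 3.39 points (SD 10.9, 19 bins) in Camk2a, 2.59 (SD 10.1, 21 bins) in Grin2b, -0.41 (SD 5.89, 14 bins) in Grin1 and -7.06 (SD 12.4, 4 bins) in Gria1. Each is smaller than the SD over the gene's own bins. Only that of Camk2a kept its sign under every alternative run, at 2.03 to 7.02 points, but no alternative left out a group of neighbouring cytosines. Single Camk2a bins ran from -16.0 to 30.6 points, with a median of 2.28, and 12 of the 19 lay above their class mean. So the Camk2a mean leans on a few bins. The excess of Gria1 became 0.55 points with bins of 200 bp, -0.02 with at least 10 cytosines a bin and -25.4 at a coverage minimum of 30. That of Grin2b became -0.15 with at least 10 cytosines a bin, and that of Grin1 ran between -1.20 and 1.76 points. Of the 58 bins, 52 lay between the 5th and 95th percentile of their class, 3 below and 3 above.

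**Figure D4:**
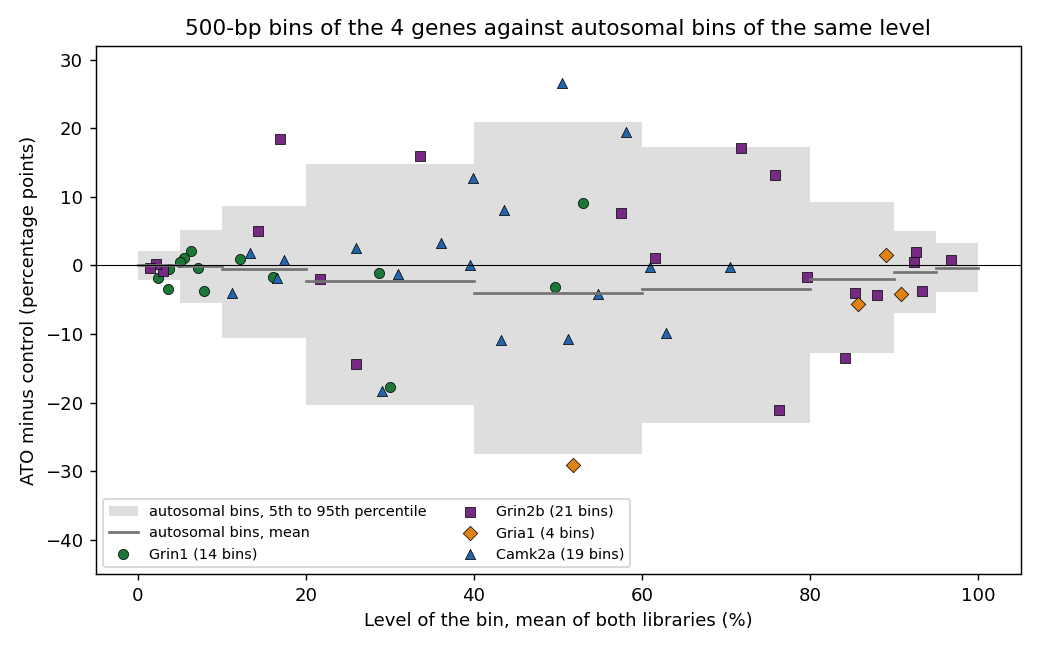
Difference ATO minus control (percentage points) of the 58 bins of the 4 genes against their level (percent, mean of both libraries); grey bands run from the 5th to the 95th percentile of autosomal bins of the same level and grey lines mark their mean. Of the 58 bins, 52 lie inside the bands.

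Cytosines were compared by Fisher's exact test with adjustment over all analysed cytosines, and a call needed both an adjusted p below 0.05 and 25 points of difference. Of the 826 cytosines 21 were called (2.54%), against a background of 2.65% of all analysed cytosines. Of these 12 were higher in the ATO library (1.45%, background 0.916%) and 9 lower (1.09%, background 1.73%). The share is near the background and is no result about these genes. The calls were 10 of 231 cytosines in Camk2a, 8 of 250 in Grin2b, 3 of 43 in Gria1 and 0 of 302 in Grin1. Before adjustment, 0.05 in Fisher's exact test was passed by 43 Camk2a cytosines (18.6%), 7 in Gria1 (16.3%), 30 in Grin2b (12%) and 22 in Grin1 (7.28%), against 12.8% of all analysed cytosines. Neither these shares nor the calls per gene were set against cytosines of the same level or coverage. Grin1 lay mostly under 10% and Camk2a mostly between 20 and 80%. Median coverages were 35 reads (ATO) and 33 (control) in Grin1, and 58 and 51 in Camk2a. How far the order of the genes follows level and coverage was not tested. Bins were called at an adjusted p under 0.05 and 20 points, and 1 of the 58 was called, against 1.8% of all bins (1.16% lower and 0.638% higher in the ATO library). Of the 29 member bins at 20 to 80%, 1 was called, against 4.49% of autosomal bins at those levels (2.89% lower and 1.6% higher). Of autosomal bins under 5% and of those at 5 to 10%, 0% were called in either direction. When counts were shrunk by how far the strands of a CpG disagreed in each library, 0 of the 21 cytosines and 0 bins were called, and over all features the same setting called 0.0828% of cytosines and 0.00789% of bins.

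The called bin lay in the body of Gria1, from 56990001 to 56990500 on chromosome 11, 165.2 kb from the 5′ end. Its level was 37.2% (exact 95% interval 27.1 to 48.0) in the ATO library and 66.3% (53.4 to 77.4) in the control (Fisher's exact test, adjusted p = 0.033). All 5 cytosines, within 133 bp, were lower in the ATO library, with levels from 25.4 to 60.4%, against 45.5 to 89.7% in the control. Coverage was 43 to 138 reads in the ATO library and 39 to 88 in the control. At 56990424 the level was 25.8% in the ATO library and 64.9% in the control, the largest loss among the 3 called cytosines of this gene. Of autosomal bins at the same level, 4.18% had a lower difference. The bin was the largest loss of the 4 genes, so a rank at the edge of its class follows in part from its choice. The other 36 cytosines downstream in Gria1 averaged 80.5% ± 22.5 in the ATO library and 85.6% ± 19.4 in the control. Of these 11 were higher, 21 lower and 0 called, at median coverages of 25.5 and 22 reads, against 93 and 74 in the called stretch. They include the shore cytosines 57124713, with 37.0% in the ATO library and 75% in the control, and 57124718, with 29.2% and 56%. So losses in Gria1 are not shown to be confined to the called bin.

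In Camk2a the called cytosines gathered 19.5 to 22.0 kb from the 5′ end. There 35 cytosines within 2549 bp, from 61104482 to 61107030 on chromosome 18, averaged 49.5% ± 19.8 in the ATO library and 36.4% ± 16.8 in the control (SD over cytosines). Of these 31 were higher in the ATO library, 4 were lower and 6 were called, all higher (background 0.916% of all analysed cytosines). Median coverages were 90 and 68 reads. The largest gain was at 61106592, with 90.3% of 103 reads in the ATO library and 50.5% of 91 reads in the control (Fisher's exact test, adjusted p = 2.9e-07). Its neighbour at 61106589 had 64.8% in the ATO library and 28.9% in the control.

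Bins of this Camk2a stretch were not called at the main settings. The bin from 61106501 to 61107000, the largest gain of the 4 genes, had 63.7% (exact 95% interval 49.5 to 77.8) in the ATO library and 37.2% (23.8 to 53.5) in the control (Fisher's exact test, adjusted p = 0.28). Of autosomal bins at its level 2.86% had a higher difference, a rank that follows in part from the choice of the largest gain. At a coverage minimum of 30 the same bin, then with 7 cytosines, was called at 70.7% in the ATO library and 38.6% in the control (Fisher's exact test, adjusted p = 0.015). The dense bin of the stretch differed by 12.7 points, and 6.96% of autosomal bins at its level had a higher difference.

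Elsewhere in Camk2a the direction varied. From 4.3 to 17.1 kb, 27 cytosines averaged 32.8% ± 14.2 in the ATO library and 39.5% ± 12.8 in the control, with 19 lower and 8 higher. From 26.8 to 61.4 kb, 110 cytosines averaged 40.7% ± 29.3 in the ATO library and 43.2% ± 32.2 in the control, with 61 lower and 45 higher. This last stretch held 2 called cytosines, both lower: 61122448 had 41.9% in the ATO library and 84.7% in the control, and 61122486 had 54.1% and 86.1%. A further called loss lay upstream of the 5′ end, at 61083303, with 48.9% in the ATO library and 77.8% in the control, and a called gain in the downstream flank, at 61149508, with 62.0% and 36.8%. Over the downstream flank 31 cytosines averaged 43.2% ± 31.3 in the ATO library and 36.5% ± 28.0 in the control, with 22 higher and 8 lower. Its bin from 61149501 to 61150000 had 67.8% in the ATO library and 48.4% in the control, and was not called (Fisher's exact test, adjusted p = 0.65). Over the upstream flank 20 cytosines averaged 47.4% ± 11.4 in the ATO library and 54.4% ± 12.9 in the control, with 5 higher and 15 lower. The stretches were chosen after their values were seen, so their contrast is a description.

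At the 5′ end of Grin2b the unmethylated island and its edges differed. The 38 cytosines from 136122333 to 136123114 averaged 2.28% ± 3.43 in the ATO library and 3.34% ± 5.55 in the control, with 12 higher and 13 lower. Upstream of the island, 9 cytosines from 136124230 to 136124635 averaged 75.0% ± 22.2 in the ATO library and 56.9% ± 23.3 in the control, and all 9 were higher. On the other side, 9 cytosines from 136120524 to 136121205 averaged 37.0% ± 16.0 in the ATO library and 25.1% ± 6.05 in the control, with 7 higher and 2 lower. Of the 18 edge cytosines 3 were called, all higher, against a background of 0.916% of all analysed cytosines called higher. These were 136124281, with 76.6% in the ATO library and 42.7% in the control, 136120621, with 57.4% and 26.3%, and 136120898, with 55.3% and 24.6%. The edges were chosen after their values were seen, so this count is a description. Taken over all shore cytosines of Grin2b the difference was 9.17 points (SD 11.0, 33 cytosines), against -0.71 points (SD 12.7) for autosomal shores outside the spans. These 33 include the 18 edge cytosines, and the autosomal shores were not matched to them by level. The bins of these edges were not called (adjusted p = 0.23 by Fisher's exact test in the bin from 136120501 to 136121000). The noncoding Gm26653, Gm14329 and Gm14330 overlap Grin2b in the RefSeq table for GRCm38.p6, and where along the gene was not recorded.

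Inside Grin2b losses and gains stood side by side. Between 388.6 and 389.3 kb from the 5′ end, 8 cytosines from 135733704 to 135734404 averaged 54.9% ± 16.2 in the ATO library and 78.0% ± 15.8 in the control. All 8 were lower and 3 were called, against a background of 1.73% of all analysed cytosines called lower. The largest called loss was at 135733704, with 26.5% in the ATO library and 73.5% in the control (34 reads each). This stretch was also chosen after its values were seen. The bin from 135734001 to 135734500, the largest loss of Grin2b, had 65.8% (exact 95% interval 53.7 to 77.2) and 86.8% (74.2 to 93.7), and was not called (Fisher's exact test, adjusted p = 0.28).

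Between 344.6 and 345.2 kb from the 5′ end a low stretch of Grin2b was higher in the ATO library beside a methylated stretch that was nearly alike in both. The 7 cytosines from 135777801 to 135778407 averaged 47.0% ± 33.2 in the ATO library and 18.7% ± 14.0 in the control. None was called, 6 were higher and 1 was equal, and the shallowest had 18 reads in the ATO library and 10 in the control. The 10 cytosines from 135776686 to 135777112 averaged 90.7% ± 6.32 and 85.6% ± 10.9. The largest gain of Grin2b was the bin from 135778001 to 135778500. Its level was 26.1% (exact 95% interval 13.9 to 40.3) in the ATO library and 7.69% (1.62 to 20.9) in the control. Of autosomal bins at 10 to 20%, 0.247% had a higher difference. The bin was chosen by its difference, so this rank follows in part from its choice. The bin was not called (Fisher's exact test, adjusted p = 0.59). Further called gains in Grin2b were at 135664104 near its 3′ end, with 75.9% of 83 reads in the ATO library and 40% of 55 reads in the control, and at 135857457, with 69.8% and 33.3%.

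**Figure D5:**
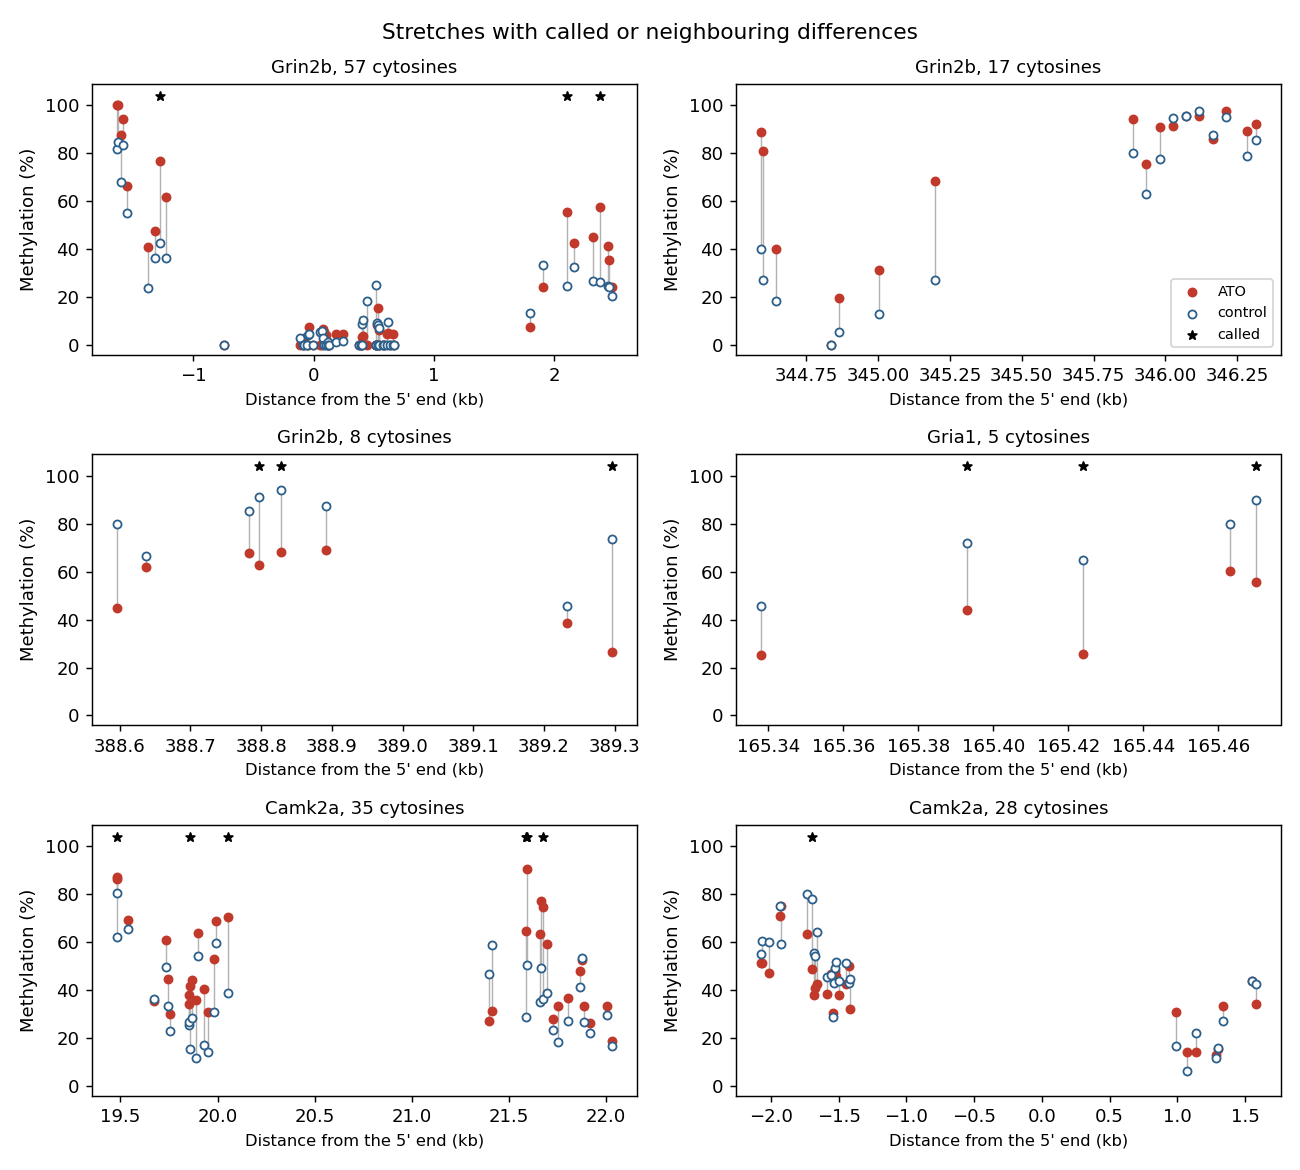
Methylation level (percent) of single cytosines against distance from the 5′ end (kb) in 6 stretches, with the gene and number of cytosines above each; filled points are the ATO library, open points the control, lines join both levels of a cytosine and stars mark called cytosines. The Grin2b island stays at or under 25% in both libraries between edges that are higher in the ATO library, the 5 Gria1 cytosines are all lower, and 31 of 35 Camk2a cytosines at 19.5 to 22.0 kb are higher.

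Over cytosines, differences spread least in Grin1 (SD 9.27 points). Of its 14 bins 8 lay under 10%, where differences of autosomal bins also spread little (SD 1.32 points under 5%, 3.29 at 5 to 10%). Whether low levels account for this spread was not tested in Grin1. Its largest loss was the shore bin from 25147001 to 25147500 at the 3′ end, with 21.2% (exact 95% interval 8.62 to 42.3) in the ATO library and 38.9% (16.3 to 67.7) in the control, and its largest gain the shore bin from 25167501 to 25168000, with 57.4% (44.0 to 69.5) and 48.4% (36.0 to 61.1). The intervals of the 2 libraries overlap in both bins. At the 3′ end the dense bin from 25145501 to 25146000 had 1.89% in the ATO library and 5.34% in the control. Of autosomal bins under 5%, 1.16% had a lower difference. The bin had the lowest such rank in Grin1, so its place at the edge follows in part from its choice. Of its 22 cytosines 11 were lower and 3 higher, but the exact intervals, 0.07 to 13.8% and 0.82 to 22.1%, overlap, and it was not called (Fisher's exact test, adjusted p = 1).

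Few CpGs were read on both strands, since 801 of the 826 cytosines lay on the reverse strand. At the 12 CpGs of the 4 genes with both strands analysed, the strands differed by a median of 3.24 points within the ATO library and 10.8 points within the control. At 7 of these, in Gria1, both strands were lower in the ATO library at 4 and higher at 1.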

How the data were processed

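Per the labels' protocols, hippocampal DNA was sonicated, enriched with the SureSelect mouse Methyl-Seq kit, bisulfite-treated and sequenced. Bismark 0.19.0, Bowtie2, bcl2fastq and the mm9 build are named in the submitters' processing notes. The deposited tables give, for each CpG cytosine and strand, a coverage as a read count and the percent of C and of T calls. The C calls were recovered as coverage times percent, and 100% of the products were whole within 0.005 points. Whether duplicate reads were removed is not given in the sources used here, so intervals cover counting error only.

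Cytosines with at least 10 reads in both libraries were compared by two-sided Fisher's exact test (Python 3.11.15, scipy 1.17.1, numba 0.67.0), with Benjamini-Hochberg adjustment over all of them. Calls in 500-bp bins with at least 5 cytosines were summed, and each sum was divided by the highest count of analysed cytosines that a 300-bp window held, since neighbours share reads. Adjustment ran over 152175 bins. Bin intervals are exact Clopper-Pearson 95% intervals on the divided sums. The callers were also run on simulated counts, drawn independently at each cytosine. Neighbours shared no reads there and only counting error was drawn, so that run gives no error rate for these data. Named in each gene were its dense bins, called bins and cytosines, the bins of largest loss and gain, and the lowest bin away from dense DNA. The genes, lists and rules were chosen with earlier results of these data known, and the stretches and motifs after values were seen. The promoter sequence is from RefSeq (GRCm38.p6), whose promoter table matched 1 of the 4 genes. Other genes of the pathway were not analysed here. Alternatives covered coverage, bins, thresholds, strands, dispersion and the definitions of dense bins and shores.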

Additional observations from a re-analysis of the deposited data

How the results depend on the processing

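No paired analysis was possible because each group had 1 library, which also left no replicate to leave out. The 21 called cytosines became 13 at an adjusted p under 0.01 (background 1.73%) and 0 with counts shrunk by the disagreement between strands (background 0.0828%). They numbered 20 at a coverage minimum of 5 (background 2.17%), 22 at 20 (3.38%) and 23 at 30 (3.95%). With 15 points of difference they numbered 31 (background 3.64%), and with reverse-strand cytosines only 21 (no background computed). The 1 called bin became 2 at a coverage minimum of 30 (background 2.64%), 3 with all calls counted (background 4.94%), and 0 each with bins of 200 bp (background 1.07%), at least 10 cytosines a bin (0.813%), or sums also divided by the strand dispersion (0.00789%). The excess of Gria1 over its level class was -25.4 points at a coverage minimum of 30. The 28 alternative values of the mean difference per gene moved by less than its SD over cytosines, but ran from -14.3 to -5.81 points in Gria1, -0.86 to 1.95 in Camk2a, 0.72 to 2.65 in Grin2b and -1.10 to 0.81 in Grin1.

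Region levels (mean of both libraries) moved with coverage and definition. Each setting changed which cytosines a region held, not the level of any cytosine. Dense Grin2b held 75 cytosines at the main settings and 40 at a coverage minimum of 20. It held 44 with dense bins of at least 20 cytosines and 31 with dense bins limited to levels under 10%. At a coverage minimum of 5, dense Camk2a was 35.6%, the rest of Gria1 71.2%, dense Grin2b 44.7% and its shores 41.7%. At 20 reads, the rest of Camk2a was 43.8%, the shores of Grin1 24.4%, dense Grin2b 95.1%, its shores 79.0% and its rest 47.4%. At 30 reads, the rest of Camk2a was 42.3%, of Gria1 71.8% and of Grin1 45.9%, the shores of Grin1 21.9%, dense Grin2b 95.5%, its shores 79.0% and its rest 50.1%. With dense bins of at least 10 cytosines, the shores of Camk2a were 49.5%, the rest of Gria1 70.2%, dense Grin1 8.59%, its shores 37.6% and its rest 60.2%, and the shores of Grin2b 47.9% and its rest 57.6%. With at least 20, the rest of Camk2a was 41.3%, dense Grin2b 95.3%, its shores 84.6% and its rest 44.7%. With dense bins limited to levels under 10%, the rest of Camk2a was 41.3% and of Grin1 25.8%, dense Grin2b 3.09%, its shores 34.0% and its rest 65.8%. With shores of 1000 bp, those of Camk2a were 23.2%, of Grin1 22.8% and of Grin2b 31.6%, and the rest of Grin1 44.5%. With shores of 4000 bp, the rest of Camk2a was 48.6% and of Grin1 79.2%. The rest here includes the flanks. Some of these sets were small. The rest of Grin1 held 2 cytosines with shores of 4000 bp and 4 with dense bins of at least 10 cytosines. The shores of Grin2b held 5 at 20 and at 30 reads, and 7 with dense bins of at least 20 cytosines. The Camk2a rest of 41.3% held all 231 cytosines of the span, since no dense bin remained.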
